A study of Mus musculus with 24 samples.

Results

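The R-spondin and Lgr genes were followed through the development of the mouse lacrimal gland (LG), the gland that secretes the watery part of tears, and through the culture of lacrimal gland stem cells (LGSCs). The genes were the R-spondins Rspo1, Rspo2, Rspo3 and Rspo4, the receptors Lgr4, Lgr5 and Lgr6, and the ubiquitin ligases Znrf3 and Rnf43. They were taken by name and chosen by the measured FPKM of these same libraries, in which Lgr5 was lower at the later embryonic stage, and each symbol matched 1 Ensembl identifier, so that 9 of the 63862 listed genes were followed. The differences between the embryonic stages are therefore given as values without a test for all 9 genes, and so is every value of Lgr5 that involves an embryonic library.

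The samples were whole C57BL/6 LG at E17.5 and E19.5 (embryonic days) and from adult mice, with 3 libraries each, and LGSC spheres of passage 2. The spheres were harvested at day 5 (2 libraries) and at days 7, 10 and 14 (3 each). A single library of passage 10 spheres at day 7 was compared by value only. LGSCs were single cells from LGs of C57BL/6 mice aged 6 to 8 weeks, grown as spheres in Matrigel in a serum-free medium with EGF, FGF10, Wnt3A and Y-27632, a ROCK kinase inhibitor. The medium components that the labels name include a Wnt ligand but no R-spondin. Neither the labels nor the methods give the adult glands' exact age, whether embryos were pooled, or whether same-numbered libraries came from separate animals or cultures, so the p-values measure the spread between these libraries, which may be technical.

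R-spondins are secreted proteins that amplify the response of a cell to Wnt ligands. They bind an Lgr receptor on the cell surface together with Znrf3 or Rnf43, membrane-bound ligases that otherwise mark the Frizzled receptors for Wnt for removal from the surface. When an R-spondin holds the ligase in this way, more Frizzled remains at the membrane. Lgr5 and Rnf43 are also transcribed in response to Wnt signalling in many epithelia, and Lgr5 marks stem cells of the intestine, hair follicle and stomach. R-spondins are often made by the mesenchyme around an epithelium.

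Levels are FPKM, which are fragments per kilobase of gene length scaled to library size. The whole-read counts behind the values could be recovered from their steps, and totals ranged from 6434277 to 9257021 reads in the 20 passage 2 and tissue libraries. Most members rested on few reads, so reads are given beside FPKM. Adult LG replicates 1 and 2 stood apart: 60.4% and 59.6% of their reads fell on the 10 genes with the most reads, against 31.3% in adult replicate 3 and at most 8.1% elsewhere. Their reads were 2.667 and 2.567 times the library scale that the deposited values imply, against 0.832 to 1.129 in the other 18 libraries, so the main comparisons with adult LG are given on both scales. In the 20 libraries many genes were listed at or near 0 that the passage 10 library held at higher levels. Gapdh, Epcam, Krt8 and Mki67 were listed at 0 in all 20, and of 9706 protein-coding genes with at least 2 FPKM at passage 10, 46.0% had a day 7 mean under 0.1 of their passage 10 value. A member at or near 0 in these 20 libraries is therefore called listed at 0 or low, not absent.

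The tissue labels were checked against marker genes. In adult LG 6 of 7 acinar markers were above 0 in every library and summed to between 247045 and 1551664 FPKM, against 75.6 to 165 FPKM at E17.5. Of 10 mesenchyme markers, 9 were above 0 in every library at each embryonic stage, and they summed to between 4720 and 5695 FPKM over both embryonic stages, 165 to 325 FPKM in adult LG and 0.575 to 1.83 FPKM in the spheres. The 10 epithelial markers summed to between 661 and 3329 FPKM in the passage 2 spheres, where Epcam and Krt8 were listed at 0. Among these markers, Krt14 and Krt5, which the paper uses as stem cell markers, averaged only 11.3 and 1.02 FPKM at day 7. The passage 10 library held 7065 and 4931 FPKM of them. At day 7 the sum thus rested mainly on other markers of the list. Immune markers summed to between 601 and 1218 FPKM in adult LG and to at most 23.8 FPKM in the embryonic libraries.

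Rspo3 was the R-spondin with the most reads in the gland, and it was low in the spheres. Its FPKM was 2.25, 2.01 and 1.29 in the E17.5 libraries (54, 60 and 32 reads), 2.18, 1.51 and 1.15 in the E19.5 libraries (59, 42 and 28 reads) and 2.28, 1.74 and 2.33 in adult LG (17, 17 and 55 reads). All 3 tissue groups overlapped. In LGSC day 7 spheres Rspo3 was 0.105, 0 and 0.0361 FPKM, from 3, 0 and 1 reads, and the highest of these lay far below the lowest tissue library. The day 5 libraries were alike, with 0.0761 and 0.0477 FPKM from 2 reads and 1 read. The day 10 libraries held 0.475, 0.0420 and 0.561 FPKM (13, 1 and 15 reads). Those of day 14 held 1.27, 0 and 0.234 FPKM (35, 0 and 6 reads). Replicates 1 and 3 thus reached higher values at days 10 and 14 than at day 7, while replicate 2 stayed at 0 to 1 reads at every day. The mean of Rspo3 over the culture libraries was under the 0.5 FPKM that a gene needed to enter a test, so its course over the culture days was not tested.

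Rspo3 was lower in day 7 spheres than in the gland, but it reached the 0.5 FPKM needed for these tests only through the gland libraries, so its entry into them depended on the group in which it was high. On log2(FPKM + 1), where differences of low genes are understated, LGSC day 7 was lower than adult LG by a difference of −1.57 (SE 0.179, 95% interval −2.0 to −1.14, limma adjusted p = 0.0014). Against E17.5 LG the difference was −1.43 (SE 0.161, 95% interval −1.82 to −1.04, limma adjusted p = 0.00071). After scaling to recovered reads they were −1.02 (adjusted p = 0.024) and −1.45 (adjusted p = 0.00076). The median gene differed by −0.08 between day 7 and adult LG on the deposited scale and by 0.51 on the other, so relative to the median gene Rspo3 differed by −1.49 and −1.53. Both comparisons use the same day 7 libraries. With no filter, so that every gene above 0 in any fitted library entered, the differences were again −1.57 (limma adjusted p = 0.0041) and −1.43 (limma adjusted p = 0.0017). Of the 2 members tested against adult LG, Rspo3 and Rnf43, both were called, beside 35.2% of all genes tested. Against E17.5 LG 1 of 2 was called, beside 47.6% of all genes, so calls as such were common in these comparisons. The mesenchyme markers moved in the same direction as Rspo3, with 4 of the 5 tested called lower than in adult LG. So did endothelium (4 of 4), immune (3 of 3), acinar (4 of 5), myoepithelium (2 of 3) and Schwann cell markers (2 of 3). Of 7 epithelium markers, 2 were called higher and 0 lower. The mesenchyme markers summed to between 0.644 and 0.991 FPKM at day 7, where 5 of 10 (Col1a2, Col3a1, Pdgfrb, Dcn and Lum) were listed at 0 in every library. The part of any of these cell types in the result was not tested, and in bulk RNA fewer cells of a type and less RNA per cell cannot be told apart. Rspo3 shares 404 bases, 13.1% of its exon length, with the antisense gene Gm48159, and reads there cannot be assigned to a strand, since nothing in the sources used here states stranded counting.

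Between the embryonic and the adult gland no difference of Rspo3 was detectable. It was −0.14 at E17.5 (95% interval −0.59 to 0.32, limma adjusted p = 0.58) and −0.27 at E19.5 (95% interval −0.72 to 0.19, limma adjusted p = 0.29) on the log2 scale. On the scale of recovered reads the values turned to 0.44 and 0.24, both again without passing the test (adjusted p = 0.22 and 0.49). The intervals leave room for changes of either sign. Of the mesenchyme markers, 8 of the 8 tested were called higher than in adult LG at both stages. Their relation to Rspo3 was not tested.

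Rspo2, an R-spondin known for its part in limb and lung development, was found in embryonic LG only at low levels, and was listed at 0 in all adult and sphere libraries. Its FPKM was 0.657, 0.250 and 0.226 at E17.5 and 0.0688, 0.134 and 0.0767 at E19.5. The smallest whole numbers of reads that give these values are 17, 8 and 6 at E17.5 and 2, 4 and 2 at E19.5. Each E17.5 library lay above each E19.5 library. Rspo2 did not reach the level needed for a test. At the gene length used here, 3 reads would be 0.243, 0.185 and 0.0769 FPKM in adult replicates 1, 2 and 3. In adult replicates 1 and 2 this lies above every E19.5 value, so a level like that of E19.5 could have been missed there. Rspo4, whose loss in humans leaves the nails unformed, gave at most 3 reads in any library, with a highest value of 0.161 FPKM in an E19.5 library. Rspo1 was listed at 0 in all 20 libraries and in the passage 10 library.

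**Figure D1:**
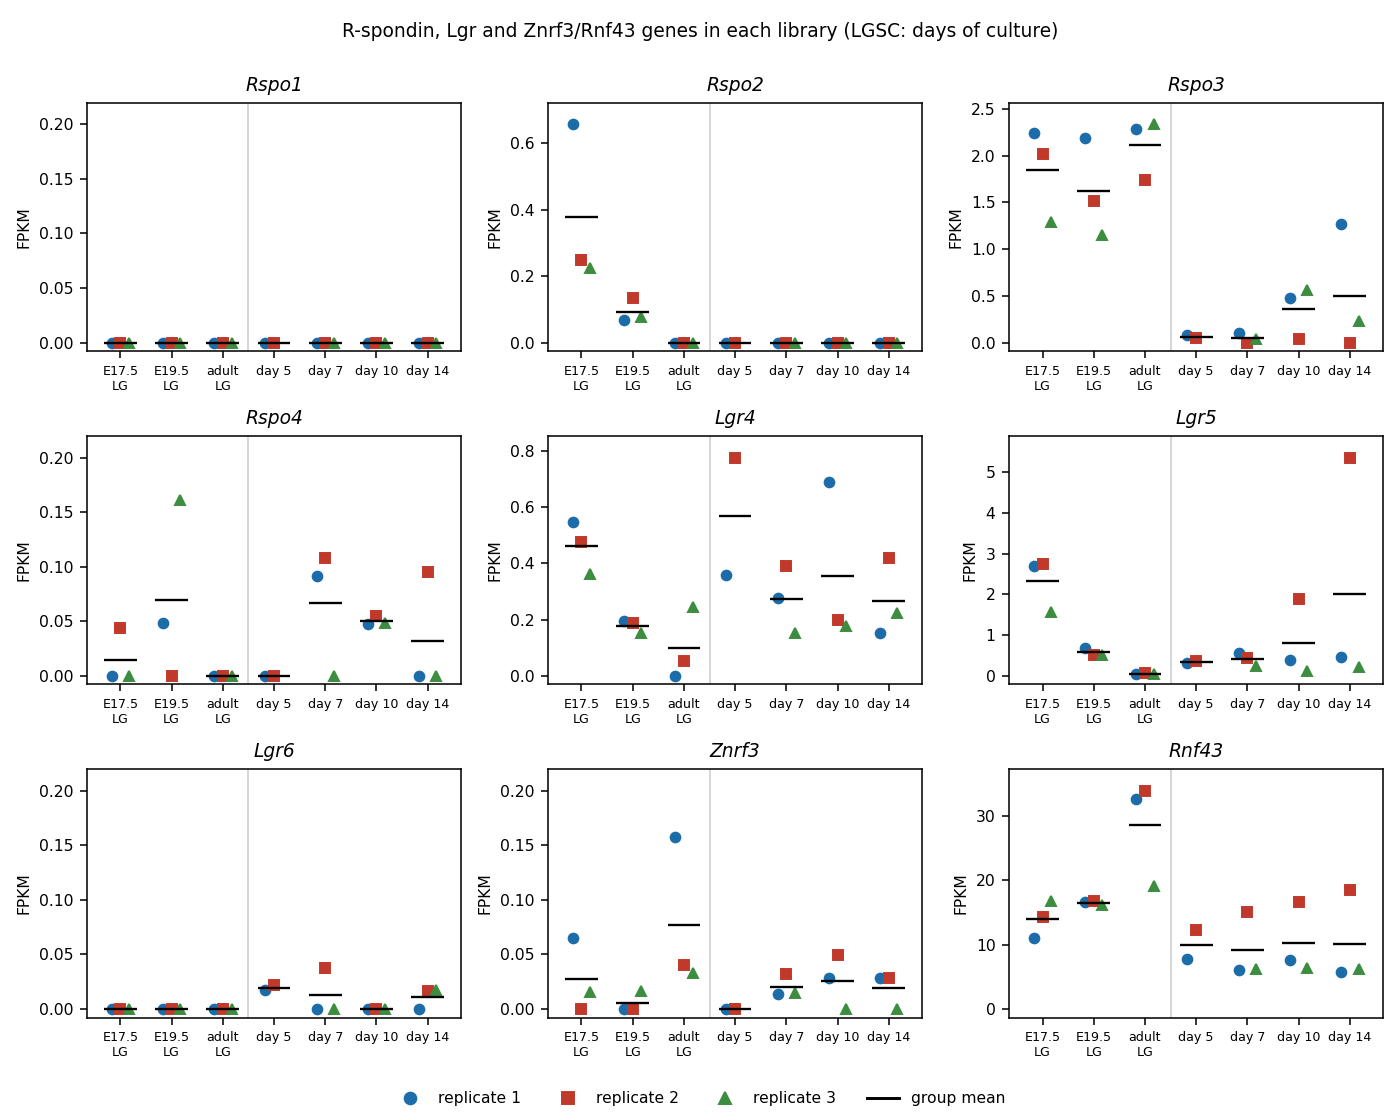
FPKM (vertical axis, linear, a separate range for each gene) of the 9 genes in the 20 passage 2 and tissue libraries. Points are libraries, with shape and colour giving the replicate number, and bars are group means. Rspo3 lies between 1.15 and 2.33 in all 9 tissue libraries, Lgr5 is highest at E17.5 among the tissues, and Rnf43 is highest in adult LG replicates 1 and 2.

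Lgr5, the receptor used as a stem cell marker in other epithelia, was highest at E17.5 among the tissues and nearly without reads in the adult gland. Its FPKM was 2.70, 2.76 and 1.56 at E17.5 (216, 273 and 128 reads), 0.691, 0.520 and 0.522 at E19.5 (62, 48 and 42 reads) and 0.0404, 0.0615 and 0.0511 in adult LG (1, 2 and 4 reads). The 3 groups did not overlap. The mean at E17.5 was 4.05 times that at E19.5, and the difference was −1.06 on the log2 scale for E19.5 against E17.5 as deposited and −1.12 when scaled to recovered reads. Against adult LG the differences were 1.65 at E17.5 and 0.58 at E19.5 as deposited, and 1.71 and 0.59 when scaled. As the gene was chosen for this pattern, these values carry no test. Between the embryonic stages 3 of the 9 genes, Rspo2, Lgr4 and Lgr5, were lower at E19.5 without overlap, beside 15.3% of the 18578 genes that passed the filter, a filter that Rspo2 and Lgr4 did not pass. Against adult LG 59.5% of these genes did not overlap at E17.5 and 58.8% at E19.5.

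In the spheres Lgr5 took a middle place, with large differences between replicates. Day 5 libraries held 0.321 and 0.373 FPKM (28 and 26 reads), and those of day 7 held 0.568, 0.436 and 0.228 FPKM (54, 35 and 21 reads). All 5 of these values lay above the adult libraries and below those of E17.5, and the day 7 values overlapped those of E19.5. The day 10 libraries held 0.385, 1.90 and 0.124 FPKM (35, 150 and 11 reads), and those of day 14 held 0.448, 5.36 and 0.223 FPKM (41, 490 and 19 reads). Replicate 2 was thus 7.45 times the mean of the other replicates at day 10 and 16.0 times at day 14, where it exceeded every tissue library. At day 7 it was 1.09 times the mean of the others, so this replicate did not stand apart at the earlier days.

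Over the culture days the change of Lgr5 did not exceed the spread between libraries. The slope was 0.086 per day on the log2 scale (SE 0.058, 95% interval −0.04 to 0.21, limma adjusted p = 0.45), and without replicate 2 of day 14 it was 0.005. Day 14 differed from day 7 by 0.68 (SE 0.620, 95% interval −0.82 to 2.17, limma adjusted p = 0.73). Of the 2 members tested over the culture days, Lgr5 and Rnf43, 0 were called, beside 2.14% of all genes for the slope and 0% for day 14 against day 7. In the latter limma called 0 of 15744 genes, 1557 had an unadjusted p under 0.05, and limma-voom also called 0. Same-numbered culture libraries deviated together, and with the replicate number as a block the slope was called for 783 genes in place of 334, still without a member.

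Lgr4, a receptor with broad expression in epithelia, was under 1 FPKM in all 20 libraries. It was 0.546, 0.476 and 0.361 FPKM at E17.5 (25, 27 and 17 reads), 0.194, 0.189 and 0.152 FPKM at E19.5 (10, 10 and 7 reads) and 0, 0.0536 and 0.245 FPKM in adult LG (0, 1 and 11 reads). The E17.5 libraries lay above all other tissue libraries, while the E19.5 and adult values overlapped. In the spheres Lgr4 ranged from 0.152 to 0.777 FPKM (8 to 36 reads), with all 4 days overlapping, so no order of the days could be given. Lgr6, a receptor of the same family known from the skin, was listed at 0 in the 9 tissue libraries and had at most 2 reads in any passage 2 sphere library. Both lay under the level needed for a test.

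**Figure D2:**
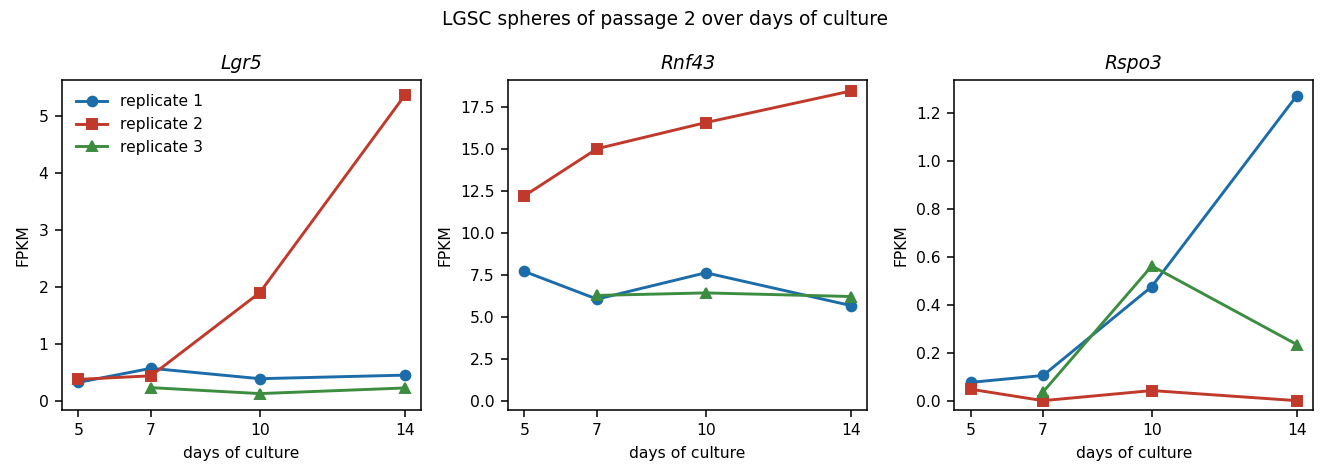
FPKM (vertical axes, linear, with a separate range each) of Lgr5, Rnf43 and Rspo3 against days of culture in LGSC spheres of passage 2. Each line joins the libraries of 1 replicate number, of which replicate 3 has no day 5 library here. Replicate 2 is highest for Lgr5 at days 10 and 14, highest for Rnf43 at each day and lowest for Rspo3 at each day.

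Rnf43, which removes Frizzled receptors from the cell surface and so dampens the Wnt response, had by far the most reads of the 9 genes. The deposited values were 11, 14.3 and 16.8 FPKM at E17.5 (562, 905 and 882 reads), 16.7, 16.7 and 16.1 FPKM at E19.5 (956, 985 and 829 reads) and 32.6, 33.9 and 19.1 FPKM in adult LG (516, 705 and 957 reads). On this scale the adult libraries lay above all embryonic ones, yet adult replicate 3 was nearer to the embryonic libraries than to the other adult ones. Its partner Znrf3, the related ligase, had 0 to 4 reads in each of the 20 libraries and at most 0.158 FPKM, so only 1 of the 2 ligases could be followed.

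The promoter of Rnf43 is shown because this gene alone had enough reads to be compared in every group. In RefSeq's promoter windows (GRCm38.p6) 5 of the 9 genes have an entry, 6 windows in all. Those of Rnf43 begin at 2 start sites, and the 250 bases before each are printed 5′ to 3′ with every CG in capitals.
Rnf43, chr11:87662837-87663086, plus strand: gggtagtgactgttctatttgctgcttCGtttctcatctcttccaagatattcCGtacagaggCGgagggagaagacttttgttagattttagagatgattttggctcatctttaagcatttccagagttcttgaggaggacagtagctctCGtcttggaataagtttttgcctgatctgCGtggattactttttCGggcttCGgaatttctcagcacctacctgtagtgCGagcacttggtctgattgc
Rnf43, chr11:87699647-87699896, plus strand: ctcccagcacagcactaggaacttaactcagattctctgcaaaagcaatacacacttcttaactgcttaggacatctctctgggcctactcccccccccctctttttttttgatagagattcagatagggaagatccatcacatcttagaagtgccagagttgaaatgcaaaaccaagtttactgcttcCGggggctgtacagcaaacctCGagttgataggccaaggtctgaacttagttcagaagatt
The first stretch holds 8 CG and the second 2, beside a median of 6 over the same stretch of all 32851 windows. The core letters bound by the TCF and LEF factors of the Wnt pathway, CTTTGAT or CTTTGAA on either strand, were not found in the 6 full windows of 300 bases, which also belong to Rspo1, Rspo4, Lgr4 and Lgr6. They occur in 8.65% of all windows, so a window without them is the usual case. The levels of Rnf43 were not separated by start site in these data.

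The difference of Rnf43 between embryonic and adult LG depended on the scale. As deposited it was −0.95 at E17.5 (SE 0.236, 95% interval −1.49 to −0.41, limma adjusted p = 0.0088) and −0.71 at E19.5 (SE 0.236, 95% interval −1.25 to −0.18, limma adjusted p = 0.031). Of the 2 members tested, Rspo3 and Rnf43, 1 was called in each comparison, beside 54.0% and 54.2% of all genes tested. Scaled to recovered reads, the adult libraries were at 12.2, 13.2 and 17.3, among the E17.5 values of 11.3, 14.9 and 17.3, and the differences were 0.02 (adjusted p = 0.94) and 0.15 (adjusted p = 0.56). With adult replicate 3 as the only adult library they were −0.44 (adjusted p = 0.13) and −0.20 (adjusted p = 0.45). The other scale moved the median of all genes from 0.05 to 0.57 at E17.5, so relative to the median gene Rnf43 differed by −1.0 on the deposited scale and by −0.55 on the other. Whether Rnf43 RNA was lower in the embryonic gland than in the adult gland was thus not settled by these libraries, and both comparisons share the adult ones. At E19.5 the call was also lost without either of adult replicates 1 and 2 (adjusted p = 0.087 and 0.10), without E17.5 replicate 2 (adjusted p = 0.050) and without any of the E19.5 libraries (adjusted p of 0.072 to 0.082). At E17.5 it held in every fit with 1 library left out (limma adjusted p of 0.00029 to 0.038). Over all 16 alternatives the call held in 14 at E17.5 and in 5 at E19.5. Xist, which is transcribed from the inactive X chromosome, also separated adult replicate 3 (74.4 FPKM) from replicates 1 and 2 (0.116 and 0.0704 FPKM), and its part in the difference was not tested.

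In the spheres Rnf43 began at 7.69 and 12.2 FPKM in the day 5 libraries, with 6.04, 15.0 and 6.27 FPKM at day 7. The later libraries held 7.62, 16.6 and 6.42 FPKM (day 10) and 5.66, 18.5 and 6.20 FPKM (day 14). Replicate 2 was the highest at each of the 4 days, at 1.59 to 3.11 times the mean of the others, and its lowest value lay above every value of replicates 1 and 3. Of 15584 genes, 5.89% had all replicate 2 libraries above all other culture libraries. No change over time was detectable: the slope was −0.005 per day (SE 0.052, 95% interval −0.12 to 0.11, limma adjusted p = 0.97), and day 14 differed from day 7 by 0.06 (95% interval −1.19 to 1.31, limma adjusted p = 0.98). Xist was at 0.0121 to 0.0252 FPKM in all replicate 1 libraries and 70.4 to 104 FPKM in those of replicates 2 and 3. Its part in the differences between replicates was not tested.

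Day 7 spheres had less Rnf43 than adult LG on the deposited scale, with a difference of −1.62 (SE 0.402, 95% interval −2.58 to −0.65, limma adjusted p = 0.023). The groups did not overlap, as for 52.4% of all genes tested. Without adult replicates 1 and 2 it was −1.11 (adjusted p = 0.31). The call was also lost without adult replicate 1 (adjusted p = 0.068), adult replicate 2 (adjusted p = 0.078), day 7 replicate 1 (adjusted p = 0.081) or day 7 replicate 3 (adjusted p = 0.085). Scaled to recovered reads, the difference was −0.55 (adjusted p = 0.22). Against E17.5 LG the difference was −0.67 (SE 0.349, 95% interval −1.51 to 0.18, limma adjusted p = 0.16), and without day 7 replicate 2 it was −1.05 (adjusted p = 0.0052). The outcome for Rnf43 thus turned on single libraries in both comparisons.

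**Figure D3:**
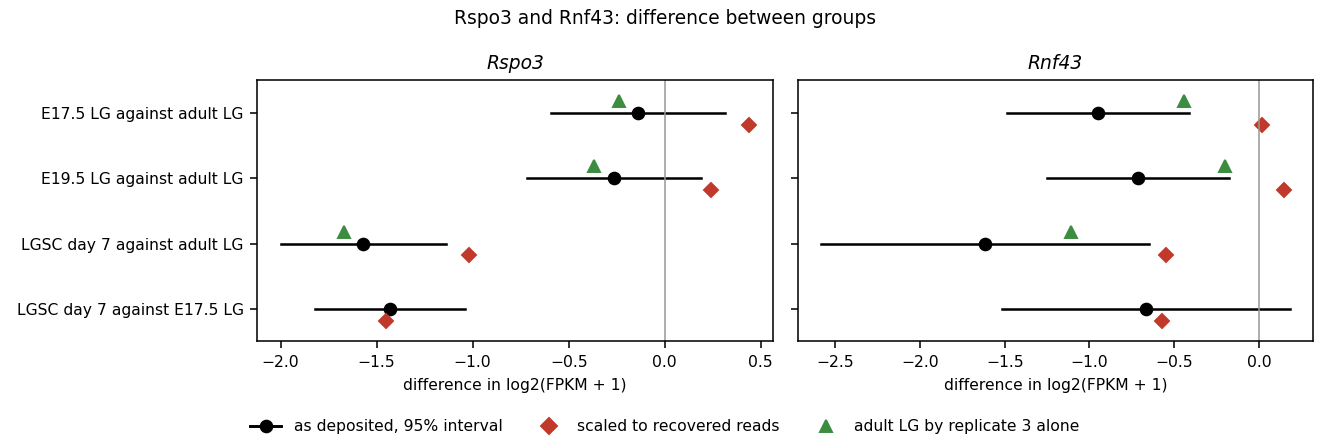
Difference in log2(FPKM + 1) (horizontal axis) of Rspo3 and Rnf43 in 4 comparisons, named so that a negative value is lower in the first group. Black points and lines are limma estimates with 95% intervals on the deposited values, diamonds the estimates after scaling to recovered reads and triangles those with adult LG replicate 3 alone. Rspo3 at day 7 lies at or below −1.02 in all of these, while Rnf43 at E17.5 and E19.5 moves from −0.95 and −0.71 to 0.02 and 0.15.

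The passage 10 library differed from the passage 2 spheres in many genes, members among them. It held 21.6 FPKM of Lgr4 (3024 reads), 9.10 FPKM of Lgr6 (1482 reads) and 4.0 FPKM of Znrf3 (750 reads), all 3 of which were low or at 0 in the passage 2 spheres of the same culture day. Rnf43 was at 2.78 FPKM (433 reads), lower than in any passage 2 library. Lgr5 gave 4 reads (0.0164 FPKM) and Rspo3 1 read (0.0136 FPKM). Relative to passage 10, the day 7 mean was 0.0126 for Lgr4, 0.00137 for Lgr6 and 0.00503 for Znrf3, and 3.28 for Rnf43 and 25.1 for Lgr5. Of 9706 protein-coding genes with at least 2 FPKM at passage 10, 46.0% had a ratio under 0.1 and 24.0% a ratio above 2. Low passage 2 values were thus not particular to Lgr4, Lgr6 and Znrf3, nor was a ratio above 2 particular to Rnf43. Gapdh, Epcam, Krt8 and Mki67, at 3.0 to 414 FPKM at passage 10, were listed at 0 in all 20 other libraries, tissues included. The passage 10 library was sequenced more deeply, to 25172936 reads, and its values were made against a list of 52747 genes in place of 63862. It has no replicate, so passage, library and gene list cannot be told apart.

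**Figure D4:**
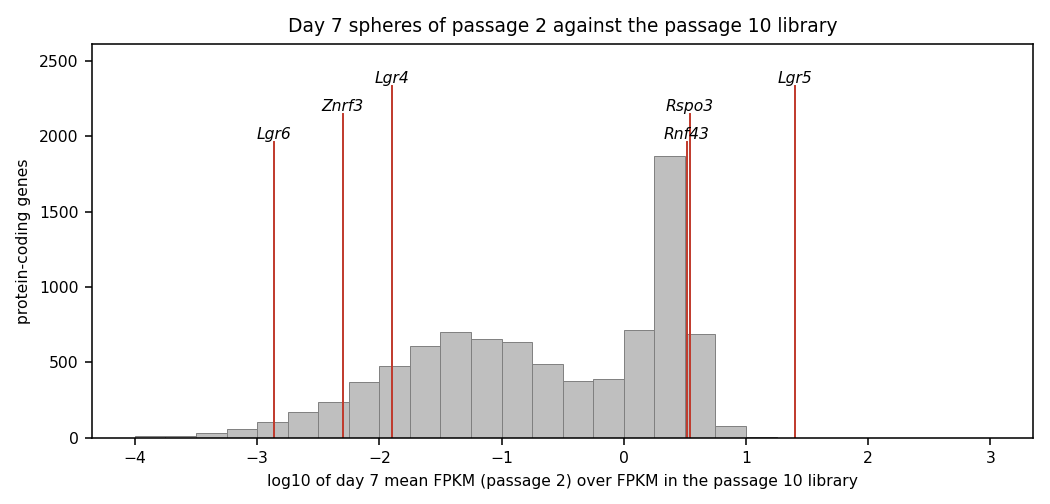
Protein-coding genes (vertical axis, number of genes) by the log10 ratio of the day 7 mean FPKM at passage 2 to the FPKM of the passage 10 library, for genes with at least 2 FPKM at passage 10. The 10.5% of these genes listed at 0 in all day 7 libraries are not drawn. The values form a narrow high peak and a broad low one, and vertical lines mark 6 of the genes, with Lgr6, Znrf3 and Lgr4 in the low part and Rnf43, Rspo3 and Lgr5 at or above the high peak, though Rspo3 and Lgr5 were under 2 FPKM at passage 10.

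The ligands and receptors that work with the R-spondins were counted in lists of Wnt pathway genes. Of 19 Wnt ligands, 8 had enough signal in the tissue fit, of which 6 rose above and 1 fell below adult LG at E17.5, with a median log2 difference of 1.78 beside 0.05 for all genes. At E17.5 29.1% of all genes tested rose and 24.9% fell against adult LG, and at E19.5 30.3% and 23.9%. The largest were Wnt2b (22.0 ± 4.13 against 0.612 ± 0.124 FPKM, SD, n = 3 each) and Wnt2 (13.1 ± 0.526 against 0.357 ± 0.502 FPKM, SD, n = 3 each), both ligands known from organ mesenchyme. At E19.5 6 were higher and 0 lower, with 2 not called. Of 18 receptors and transducers 14 could be compared, of which 7 lay above adult LG and 4 below it at E17.5, with a median of 0.38. Among them Fzd2, a Frizzled receptor, was at 143 ± 14.6 FPKM at E17.5 and 5.71 ± 3.87 FPKM in adult LG (SD, n = 3 each). At E19.5 the counts for receptors were 6 higher and 4 lower.

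Secreted antagonists, which bind Wnt ligands or their co-receptors, had the highest median of the 4 lists in both embryonic stages. Of 12, 7 could be compared, and at each stage 6 rose above adult LG and 1 fell below it, with medians of 2.73 and 3.87. Sfrp2 was at 304 ± 74.9 FPKM at E17.5, 103 ± 12.5 FPKM at E19.5 and 5.33 ± 3.23 FPKM in adult LG (SD, n = 3 each). Sfrp5 went the other way, with 0.529 ± 0.168 FPKM at E17.5 and 110 ± 64.0 FPKM in adult LG (SD, n = 3 each). Of 16 feedback and target genes, 6 could be compared, and 5 were higher and 1 lower at each embryonic stage. They included Nkd1, an intracellular inhibitor induced by Wnt, at 15.2 ± 3.5 FPKM at E17.5 and 1.86 ± 1.71 FPKM in adult LG, and Ascl2, a transcription factor of intestinal stem cells, which was lower at E17.5 (2.12 ± 0.132 against 15.9 ± 7.81 FPKM, SD, n = 3 each). Scaled to recovered reads, the counts at E17.5 were 6 higher and 0 lower for ligands, 7 and 1 for receptors, and as before for the other lists. At E19.5 they were then 6 and 0 for ligands, 7 and 2 for receptors, 5 and 0 for target genes and 6 and 1 for antagonists. With adult replicate 3 as the only adult library, ligands gave 5 and 2 at both stages, receptors 6 and 2 at E17.5 and 6 and 3 at E19.5, target genes 5 and 1 and antagonists 6 and 1 at both. A gene could also pass the filter through the group where it was high, and with no filter the E17.5 medians were 0.10 for 19 ligands, 0.17 for 17 receptors, 0.25 for 15 target genes and 0.70 for 12 antagonists. Of the 10 mesenchyme markers, 8 passed the filter and all 8 were higher at both embryonic stages, and their part in these counts was not tested.

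In day 7 spheres the Wnt ligand lists held few calls against adult LG and more against E17.5 LG, 2 comparisons that share the day 7 libraries. Against adult LG, 1 of 6 ligands was higher and 0 lower (median 1.2), and against E17.5 LG 2 of 9 were higher and 4 lower (median −0.85). Over all genes tested 14.2% were higher and 21.1% lower than in adult LG, and 18.1% and 29.6% than at E17.5. Wnt10a, a ligand of skin appendages and teeth, was at 83.7 ± 87.9 FPKM at day 7 (25.7 to 185 FPKM, n = 3), against 5.55 ± 3.02 FPKM in adult LG (SD, n = 3), with a log2 difference of 3.28 (limma adjusted p = 0.017). Of the receptors, 3 of 13 were higher and 2 lower than in adult LG, and 2 of 12 were higher and 5 lower than at E17.5. Of the antagonists, 1 of 5 was higher and 2 lower than in adult LG, and 1 of 6 was higher and 5 lower than at E17.5, where Sfrp2 was at 0.0563 ± 0.0596 FPKM in the spheres. Of the feedback and target genes, 3 of 7 were higher and 2 lower than in adult LG, and 0 of 8 were higher and 4 lower than at E17.5. With adult replicate 3 alone, the counts against adult LG were 0 higher and 0 lower for ligands, 2 and 2 for receptors, 0 and 2 for antagonists and 1 and 1 for target genes. With the values scaled to recovered reads they were 2 and 0, 4 and 0, 1 and 2, and 3 and 2 in the same order.

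Over the culture days 1 pathway gene rose, the Wnt target Sp5, a transcription factor that is among the most direct responders to the pathway. It was 1 of 7 feedback and target genes that passed the filter, and 0 of 7 ligands, 13 receptors and 3 antagonists were called. Over all genes tested 2.14% had a called slope, and the lists as a whole were not tested. For Sp5 the day 5 libraries held 0.392 and 0 FPKM, and those of day 7 held 1.08, 0.0609 and 0.266 FPKM. Levels were 2.21, 0.618 and 1.60 FPKM on day 10 and 5.13, 1.77 and 6.07 FPKM on day 14. All 3 day 14 values lay above all day 5 and day 7 values. The slope was 0.24 per day on the log2 scale (SE 0.042, limma adjusted p = 0.022), and it stayed positive in all 19 alternatives, with an adjusted p of 0.0021 to 0.21, under 0.05 in 14 of them. Without a single library it was over 0.05 for day 5 replicate 1 (0.058), day 5 replicate 2 (0.081) and day 14 replicate 3 (0.088). With the replicate number as a block, the ligands gave 1 rise and 1 fall, the receptors 1 fall and the antagonists 1 rise in addition. Sp5 was lowest in replicate 2 at each day, the replicate in which Lgr5 and Rnf43 were highest at day 14. Between day 14 and day 7 alone 0 genes of the 4 lists were called by limma.

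The members' patterns were also compared with each other and with all named genes, by Pearson's r on the log2 scale and as a description. Over the 9 tissue libraries Lgr5 went with Lgr4 (r = 0.91) and against Rnf43 (r = −0.79), while over the 11 culture libraries it went with Rnf43 (r = 0.73) and hardly with Lgr4 (r = 0.08). The tissue values share the 3 stages, and in the culture libraries replicate 2 was high in both Lgr5 and Rnf43 at days 10 and 14. All r values here are on the deposited scale, on which Rnf43 was highest in adult replicates 1 and 2. Scaled to recovered reads, its adult values of 12.2, 13.2 and 17.3 lay among those of E17.5, and r was not computed on that scale. The genes most like Lgr5 over the tissue libraries were the embryonic globin Hbb-y (r = 0.996), A730046J19Rik (0.989), the embryonic globin Hba-x (0.987), Gm26945 (0.987) and the carbonic anhydrase Car14 (0.985). Those most like Rnf43 over all 20 libraries were Ppp1r3d (r = 0.953), a regulatory subunit of protein phosphatase, Cbs (0.935), an enzyme of cysteine synthesis, and Stard5 (0.928), a lipid transfer protein.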

How the data were processed

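RNA was sequenced as 150-bp paired-end reads after poly-T selection with a NEBNext Ultra kit. Per the labels, the submitters' processing notes name CASAVA 1.8, HISAT2 2.0.5, featureCounts 1.5.0-p3 and the build NCBIM37. The deposited values were taken as FPKM, from their steps and their dependence on gene length, and the step from counts to FPKM is not given in the sources used here. Identifiers matched GENCODE M21 for 52403 of 52636 Ensembl genes, so gene lengths came from there. Divided by the value of 1 read, 92.6% to 93.6% of values per library (20 libraries, values of at most 1000 reads) came out whole, with a tolerance of 0.01.

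limma 3.58.1 (R 4.3.3, lmFit and eBayes with trend) was fitted to log2(FPKM + 1), after genes whose mean over the fitted libraries was under 0.5 FPKM had been left out. Benjamini-Hochberg adjustment covered all genes tested, with a threshold of 0.05. All 9 tissue libraries shared 1 fit, all 11 culture libraries the slope over days, and the other comparisons used the 6 libraries of their groups. The fits were tested on simulated data. The members, the gene lists and the tests were chosen with earlier results of these data known. Every member is reported in every group, with counts for each Wnt list, up to 3 of its genes with the largest called differences, and the genes most correlated with Lgr5 (5) and with members of at least 1 mean FPKM (3). Alternatives were a pseudocount of 0.1, no filter, scaling to recovered reads, limma-voom on recovered reads with a TMM factor, the replicate block, other sets of libraries and leaving out each library. Leaving out adult replicates 1 and 2 or culture replicate 2 was chosen after seeing the data. Deviations of same-numbered libraries correlated in culture (r of at least 0.26 for every pair), so the numbers pair there. In the tissues they did not (r of −0.08 to 0.07). Of 24 samples listed 21 were used, and the others, LGSC day 5 replicate 3 and passages 6 and 20, were not analysed here. Figures were drawn with matplotlib 3.10.9, and tables with pandas 2.3.3 and numpy 2.4.6 under Python 3.11.15.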

Additional observations from a re-analysis of the deposited data

Results flagged for a closer look

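The passage 10 library of LGSC spheres at day 7 entered no test and was set beside the other libraries by value only, and 3 of the 9 genes were above all day 7 libraries of passage 2 there. Lgr4 was at 21.6 FPKM against at most 0.391 FPKM, Lgr6 at 9.10 FPKM against at most 0.0373 FPKM and Znrf3 at 4.0 FPKM against at most 0.0324 FPKM. Such gaps were common. Of 9706 protein-coding genes with at least 2 FPKM at passage 10, 46.0% had a day 7 mean under 0.1 of that value. The differences of these 3 members were not tested, as there was 1 library, made against another gene list. No group held 4 or more libraries, so none was searched for outlying libraries.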

How the results depend on the processing

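Rspo3 differed between day 7 spheres and the gland by −5.30 to −1.02 over 14 alternatives against adult LG (limma adjusted p of 4.42e-05 to 0.030) and by −4.95 to −1.33 over 12 against E17.5 LG (adjusted p of 0.00010 to 0.0051), but in those with the filter it entered through the gland libraries alone, and the fit with no filter is the alternative free of that choice (−1.57 and −1.43). Scaled to recovered reads, Rnf43 turned from lower to 0.02 at E17.5 and 0.15 at E19.5 against adult LG, and Rspo3, which was not called, to 0.44 and 0.24. The number of members called against adult LG was 1 at E17.5, and became 3 with no filter, 0 when scaled and 0 with adult replicate 3 alone. At E19.5 it was 1, and 0 with no filter, when scaled, with only the groups compared, with adult replicate 3 alone and without either of adult replicates 1 and 2, E17.5 replicate 2 or any E19.5 library (0 to 1 over libraries left out). For day 7 it was 2 against adult LG, and 1 when scaled, with adult replicate 3 alone, and with libraries numbered 1 and 3 alone (1 to 2 over libraries left out). Against E17.5 LG it was 1, and 2 with no filter or without day 7 replicate 2 (1 to 2 over libraries left out). With no filter, members near 0 also entered these tests. The calls over all genes were then 11605 of 39835 at E17.5 and 11160 of 39835 at E19.5 against adult LG. For day 7 they were 5912 of 35495 against adult LG and 9779 of 37605 against E17.5 LG. Scaled to recovered reads, 10667 of 18578 genes were called at E17.5, 10173 of 18578 at E19.5 and 7294 of 17698 at day 7, each against adult LG. Leaving out 1 library moved Rspo3 between −0.24 and 0.01 at E17.5 against adult LG, positive without E17.5 replicate 3. Lgr5 at E19.5 against E17.5 was −1.82 with a pseudocount of 0.1. Rnf43 over the culture days, not called in any alternative, turned to 0.015 per day when scaled and 0.007 on days 7, 10 and 14 only (−0.056 to 0.025 over libraries left out), and between days 14 and 7 to −0.05 with libraries numbered 1 and 3 alone (−0.43 to 0.45 over libraries left out). The cause was not tested.

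The count of genes with a slope over the culture days, 334, was 82 with no filter, 0 on days 7, 10 and 14 only, and 11 to 384 over libraries left out, lowest without day 5 replicate 1. Against adult LG the 6238 genes called at day 7 became 1987 with libraries numbered 1 and 3 alone and 3770 to 8135 over libraries left out, lowest without day 7 replicate 3. With the replicate number as a block, which pairs the culture libraries, 783 genes had a slope, and Rnf43 was at 0.011 per day and Lgr5 at 0.105 per day (adjusted p = 0.77 and 0.17). In the tissues, where the numbers did not pair the libraries, the block left 0 members called at E19.5 against adult LG and changed no other member call. Depth limits most members: Rspo4, Lgr6 and Znrf3 had at most 4 reads in any of the 20 libraries, and the reads of Rspo2 are known only as the smallest whole numbers that fit.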
